A study of Danio rerio with 14 samples.

Results

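The peaks described here lay in the first or the last megabase (Mb) of the zebrafish chromosomes. A peak of the 4 deposited ChIP-seq peak lists was a member when its centre was within 1 Mb of position 1 (the left end) or of the largest peak end found on that chromosome over the 4 lists (the right end), on chromosomes 1 to 25 of the Zv9 build. This gave 2176 of 41309 peaks, in 50 end windows that made up 3.69% of the 1356 Mb between the outermost coordinates. All chromatin came from whole embryos of strain AB/PS (Danio rerio). Rad21 was immunoprecipitated at 2.5, 4.5 and 10 hours post fertilisation (hpf) and CTCF at 10 hpf, and each of the 3 stages had an input control without antibody. The 7 groups held 2 libraries each, 14 in all, from separate collections of pooled embryos, 2000 embryos for a 2.5 hpf collection and 1000 for a later one. The 2.5 hpf chromatin was sheared in 6 cycles and the later chromatin in 10. The 2.5 hpf libraries were also built with another kit at another sequencing site and read as 125 bp paired ends in place of 50 bp single ends. Stage and library preparation therefore cannot be told apart at 2.5 hpf.

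Rad21 is the kleisin subunit of cohesin, the ring-shaped complex that holds sister chromatids together and extrudes chromatin into loops. CTCF is a zinc finger protein that binds DNA in a sequence-specific way and at which moving cohesin is known to halt, so that both proteins are often found at the same sites. Chromosome ends carry telomere repeats, and the sequence next to them is often repetitive and difficult to assemble. A whole embryo holds many cell types, and peaks from it are an average over them. In such bulk samples, fewer cells that bind a site and less binding per cell cannot be told apart.

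Each list was a single file per stage and antibody, with no value for a single library. The spread between replicates is therefore unknown, and no test was run. Intervals in brackets are exact binomial (Clopper-Pearson) 95% intervals, which cover counting error only and treat neighbouring peaks as independent. Per the file headers, the 2.5 hpf list rested on 5245276 of 15362000 Rad21 tags after duplicates were removed. The redundant rate at 2.5 hpf was 0.66 for Rad21 and 0.1 for the input. For the later Rad21 lists the headers give 14255160 and 13260105 total tags, and for CTCF 28291282. These totals are not the same measure as the filtered count at 2.5 hpf. The 2.5 hpf list came from another peak caller than the other 3, and only the 2.5 hpf list gives an enrichment for each peak.

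The first question was whether the ends held more peaks than their length. All 4 lists had more peaks in the end megabases than the 3.69% of length that the ends make up, and the excess differed between lists. Of the 2.5 hpf Rad21 peaks, 157 of 2011 lay in the ends, or 7.81% (6.67% to 9.07%). Of the 4.5 hpf Rad21 peaks, 466 of 7144 did, or 6.52% (5.96% to 7.12%). At 10 hpf the ends held 821 of 18075 Rad21 peaks, or 4.54% (4.24% to 4.86%), and 732 of 14079 CTCF peaks, or 5.20% (4.84% to 5.58%). Among the Rad21 lists the share at the ends was lowest at 10 hpf, and CTCF at 10 hpf lay above Rad21 at the same stage.

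Divided by the share of length, the shares gave ratios of 2.12 (1.81 to 2.46) for 2.5 hpf Rad21 and 1.77 (1.62 to 1.93) for 4.5 hpf Rad21. The ratio was 1.23 (1.15 to 1.32) for 10 hpf Rad21 and 1.41 (1.31 to 1.51) for CTCF. In peaks per Mb, the ends held 3.14, 9.32, 16.4 and 14.6 in the same order, against 1.42, 5.11, 13.2 and 10.2 elsewhere. No list fell below its own level elsewhere, although the lists differ in length and in how they were called. At 2.5 hpf the ratio was 1.48 without chromosome 20 and 1.36 without chromosomes 4, 18 and 20, whose ends held most of that list's end peaks. Over the first 2011 peaks of each list, the length of the shortest one, the ratio was 2.43 at 4.5 hpf, 1.35 at 10 hpf and 2.13 for CTCF. The order of 2.5 and 4.5 hpf turned with these settings: 4.5 hpf was the higher one at equal length, and also without chromosome 20, at 1.80. The 10 hpf ratio was the lowest of the Rad21 lists at equal length and, at 1.24, without chromosome 20.

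Density by distance from the end was taken next. Within 100 kb of an end there were 60, 68, 119 and 109 peaks for Rad21 at 2.5, 4.5 and 10 hpf and for CTCF. Their density was 8.09 (6.20 to 10.4), 2.58 (2.01 to 3.27), 1.79 (1.48 to 2.14) and 2.10 (1.73 to 2.53) times the mean of the list. Among the 60 peaks of 2.5 hpf were 16 close together on chromosome 20 and 12 on chromosome 18. At 2.5 hpf the density was 1.89 times the mean between 100 and 200 kb and 0.94 between 200 and 300 kb. It was 5.66 (4.09 to 7.63) between 300 and 400 kb, with 42 peaks, 35 of them close together on chromosome 20. The 2.5 hpf density thus did not fall steadily from the tip. Rad21 at 4.5 hpf stayed between 1.82 and 2.58 times its mean over the first 500 kb and between 1.21 and 1.33 over the next 500 kb. Rad21 at 10 hpf went from 1.79 in the first 100 kb to 1.28 between 400 and 500 kb, and lay between 0.87 and 1.05 from there to 1 Mb. CTCF lay between 1.00 and 1.43 over that outer stretch from 500 kb to 1 Mb.

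Over the first megabase from the end, both later Rad21 lists and CTCF thus came down towards their means with distance. From 1 to 2 Mb the density was 1.01 times the mean for 4.5 hpf Rad21, 0.83 for 10 hpf Rad21 and 1.07 for CTCF. Both Rad21 lists then passed through a minimum between 3 and 5 Mb, at 0.82 and 0.76 times their means. At 2.5 hpf the density between 1 and 5 Mb was lower still against the mean of its list, at 0.55 from 1 to 2 Mb, 0.30 from 2 to 3 Mb and 0.45 from 3 to 5 Mb. CTCF showed no such dip and was at 0.95 times its mean beyond 10 Mb.

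**Figure D1:**
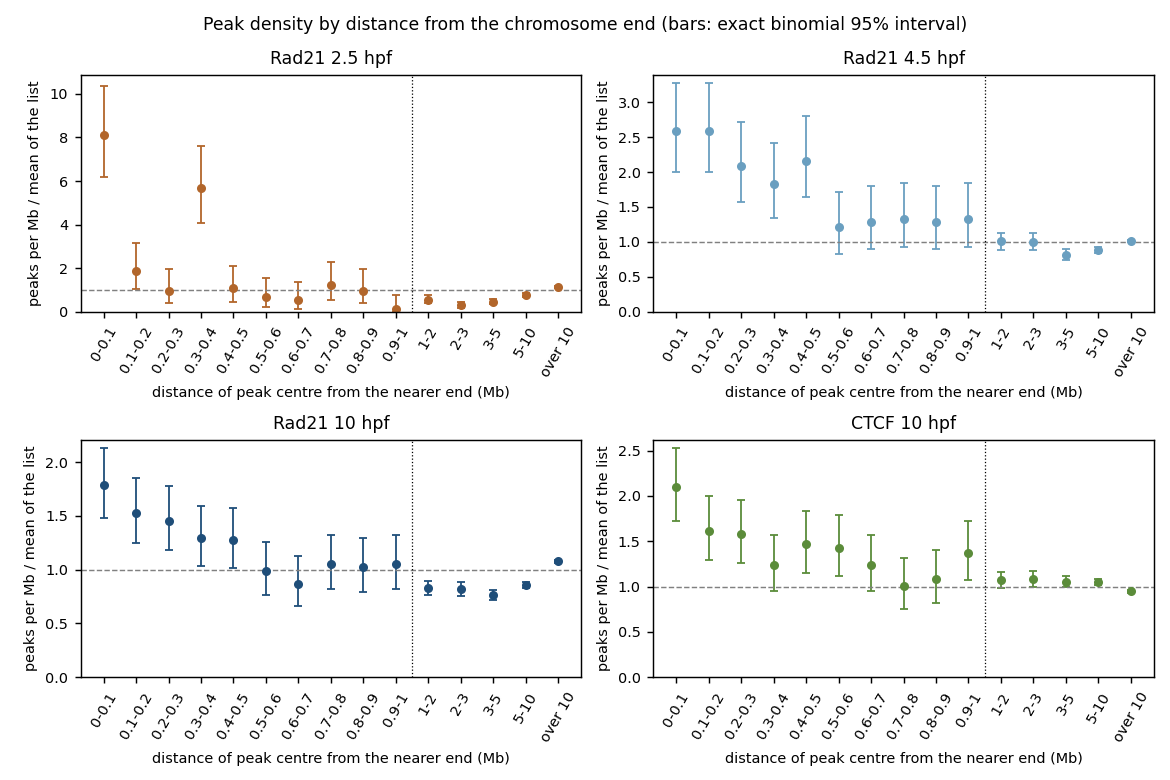
Peaks per Mb divided by the mean of the list (y axis) against the distance of the peak centre from the nearer chromosome end in Mb (x axis, bins of unequal width), 1 panel per list. Points are the pooled value over all 50 ends with exact binomial 95% intervals, the dotted line marks 1 Mb, and each list is highest in the first 100 kb, at 8.09, 2.58, 1.79 and 2.10 times its mean; Rad21 at 4.5 hpf has the same value between 100 and 200 kb.

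Because the right end was set by the outermost peak, each of the 25 right ends has a peak at its very tip by construction. The left end, at position 1, has no such peak, and the outermost peak of any list there lay between 41 bp and 118 kb from position 1, with a median of 13.5 kb. The left ends alone still had 28, 27, 51 and 51 peaks in their first 100 kb, at 7.55, 2.05, 1.53 and 1.97 times the means of the lists. The right ends had 32, 41, 68 and 58, at 8.63, 3.11, 2.04 and 2.23 times the means. The first 100 kb was thus above the mean of the list at both kinds of end. Within the first 300 kb, a rise towards the tip was not seen at the left ends for the later Rad21 lists. Further in, the left-end counts were lower, at 21 for 4.5 hpf Rad21 and 30 for 10 hpf Rad21 between 900 and 1000 kb. From the tip inwards, successive 100 kb held 27, 32 and 30 left-end peaks of 4.5 hpf Rad21 and 51, 53 and 51 of 10 hpf Rad21, against 41, 36 and 25 and 68, 49 and 46 at the right ends. CTCF had 51, 49 and 40 at the left ends and 58, 35 and 42 at the right.

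At a minority of ends, the outermost peaks of different lists lay close together. At 7 of 25 left and 6 of 25 right ends, the outermost peak of a second list lay within 200 bp of the outermost peak of all. Rad21 at 10 hpf held the outermost peak at 13 left ends, CTCF at 8, Rad21 at 4.5 hpf at 3 and Rad21 at 2.5 hpf at 1. At the right ends, Rad21 at 2.5 hpf held 8, CTCF 7, Rad21 at 10 hpf 6 and Rad21 at 4.5 hpf 4. The shortest list thus set the tip of 8 right ends.

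Single peaks lay near the tips. Each peak named here at a right end itself set that end, so its place at the tip follows from the rule. The 2.5 hpf peak nearest to position 1 was on chromosome 23, from 41 to 323, with a fold enrichment of 9.68 over the modelled background. The first peak of chromosome 25 at 10 hpf was held by both Rad21, from 673 to 861, and CTCF, from 715 to 879. On chromosome 7, the 4.5 hpf Rad21 peak from 77225101 to 77225269 was the outermost of the right end and overlapped both a 10 hpf Rad21 peak and a CTCF peak. The nearest to a left tip in the 4.5 hpf list was on chromosome 4, from 2774 to 2942, and no other list held it. The outermost 10 hpf Rad21 peak of chromosome 8, from 56153056 to 56153244, was likewise in no other list, and the CTCF peak at the right tip of chromosome 14, from 53706529 to 53706693, overlapped a 10 hpf Rad21 peak.

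At the inner limit, the last members and the first peaks left out were close together in the later lists. The 2 members of CTCF nearest to the limit lay 994 and 999 kb from an end, and the first 2 outside at 1000.04 and 1002 kb. For 10 hpf Rad21 these were 996 and 999 kb inside and 1002 and 1004 kb outside, and for 4.5 hpf Rad21 991 and 994 kb inside and 1002 and 1002 kb outside. At 2.5 hpf they were 900 and 938 kb inside and 1016 and 1018 kb outside, so that this list had no peak between 938 and 1016 kb.

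The chromosomes were then compared. Most ends held more peaks than the median window elsewhere in every list, and at 2.5 hpf a few ends also held a large part of all end peaks. The median end held 9 peaks of 4.5 hpf Rad21 (quartiles 7 and 12, range 2 to 16), against a median of 5 in 1294 windows of 1 Mb elsewhere. For 10 hpf Rad21 the median end held 16 (13 and 19, range 7 to 31), against 12 elsewhere, and for CTCF 15 (11 and 18, range 2 to 28), against 10. Of the 50 ends, 41, 39 and 39 lay above the median window elsewhere in these lists, and 42 did at 2.5 hpf, where that median was 0. Ends above the upper quartile of the windows elsewhere were 56% at 2.5 hpf and 64%, 30% and 58% in the later lists, against 15.6%, 19.9%, 22.8% and 20.2% of those windows. In each later list, every end held at least 1 peak.

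By chromosome, the ends were denser than the remainder on 22 of 25 chromosomes for 4.5 hpf Rad21, 22 for 10 hpf Rad21 and 23 for CTCF. The chromosome with the highest ratio was 24 for 4.5 hpf Rad21, at 3.08, chromosome 14 for 10 hpf Rad21, at 1.90, and chromosome 4 for CTCF, at 2.09. The lowest ratios were 0.92 on chromosome 3, 0.93 on chromosome 23 and 0.99 on chromosome 20 in the same order. The highest and lowest chromosomes were thus different ones in each of these lists. At 2.5 hpf the ends were denser on only 16 of 25 chromosomes, with ratios from 0 on chromosome 11 to 43.7 on chromosome 20.

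The ends with the most 4.5 hpf Rad21 peaks were the left end of chromosome 1 and the right end of chromosome 15, with 16 each. The right end of chromosome 6 followed with 15, level with other ends. At 10 hpf Rad21 was densest at the left ends of chromosomes 14 and 22, with 31 each, and at the right ends of chromosomes 11 and 12, with 24 each. CTCF was densest at the left end of chromosome 11, with 28, then at the right end of chromosome 2 and the left end of chromosome 9, with 23 each.

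The lists did not rank the ends alike. The right end of chromosome 2 held 23 CTCF peaks but 2 Rad21 peaks at 4.5 hpf and 9 at 10 hpf. The right end of chromosome 15 held 16 peaks of 4.5 hpf Rad21, 14 of 10 hpf Rad21 and 10 of CTCF. The left end of chromosome 22, among the densest at 10 hpf, held 15 Rad21 peaks at 4.5 hpf and 19 CTCF peaks. Across the 50 ends, Spearman's rho between the numbers of peaks was 0.48 for Rad21 at 4.5 and 10 hpf, 0.36 for Rad21 and CTCF at 10 hpf and 0.14 for Rad21 at 4.5 hpf and CTCF. These values describe ends that share the libraries of each list, and both 10 hpf lists also share an input. Between 2.5 hpf Rad21 and the other lists rho was 0.10, 0.05 and -0.12.

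**Figure D2:**
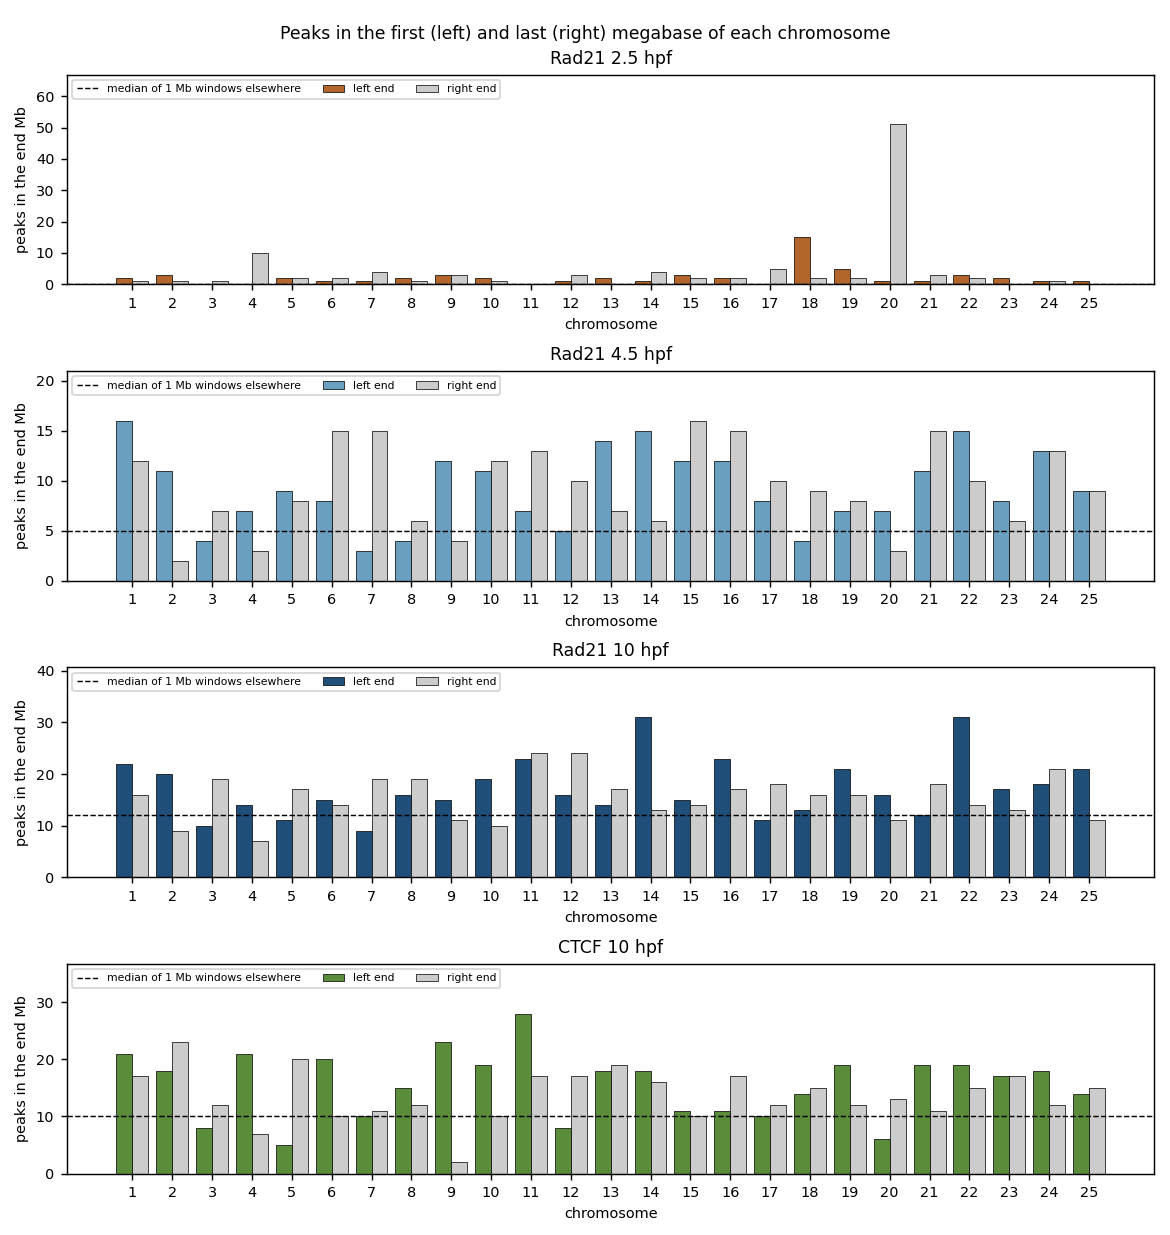
Peaks in the end megabase (y axis, peaks, own scale per panel) of each chromosome (x axis), coloured bars for the left and grey bars for the right end, 1 panel per list. The dashed line is the median of the 1 Mb windows elsewhere, at 0, 5, 12 and 10 peaks, and the 2.5 hpf panel is led by the right end of chromosome 20 with 51 peaks.

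At 2.5 hpf, 3 ends held 76 of the 157 end peaks, or 48.4%. These were the right end of chromosome 20 with 51 peaks, the left end of chromosome 18 with 15 and the right end of chromosome 4 with 10. In each later list the 3 densest ends held 10.1% to 10.5%. The median end had 2 peaks at 2.5 hpf, and 28 ends had 1 or 2. The left ends of chromosomes 3, 4, 11 and 17 and the right ends of chromosomes 11, 13, 23 and 25 had none. For comparison, 61.2% of the 1 Mb windows elsewhere had no 2.5 hpf peak, against 16% of the ends. The densest of those windows held 83 peaks, more than any end, so such high counts were not particular to the ends.

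The left and right ends were close in the later lists. The right ends held 234 of 466 Rad21 peaks at 4.5 hpf, or 50.2% (45.6% to 54.8%), 388 of 821 at 10 hpf, or 47.3% (43.8% to 50.7%), and 342 of 732 CTCF peaks, or 46.7% (43.1% to 50.4%). At 2.5 hpf they held 103 of 157, or 65.6% (57.6% to 73.0%). Without chromosome 20 that share was 49.5%, so the split at 2.5 hpf rested on 1 chromosome. With peaks less than 1 kb apart merged to 1 region it was 56.4%.

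The 2.5 hpf peaks of the 3 densest ends stood in tight runs. A run was counted where at least 3 peaks of a list followed each other at steps of at most 10 kb. At the right end of chromosome 20, 35 peaks lay between 55443979 and 55481142, a stretch of 37.2 kb of which peaks covered 64.3%. Another 16 lay between 55768376 and 55798188. The last of these itself set the right end of chromosome 20, so its distance of 0.22 kb from that end follows from the rule. On chromosome 18, 12 peaks lay between 41331 and 52477, and on chromosome 4, 9 lay between 61288335 and 61304066. The largest run of a later list had 5 peaks, of 4.5 hpf Rad21, between 60327961 and 60347786 at the right tip of chromosome 1, where 3 peaks of 10 hpf Rad21 and 1 of CTCF also lay.

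Runs held 75 of the 157 end peaks at 2.5 hpf, or 47.8%, against 4.72% of the end peaks of 4.5 hpf Rad21, 9.74% of 10 hpf Rad21 and 6.01% of CTCF. The later lists kept only peaks at least 4-fold above the 10000 bp around them, per the file headers, and the part of that filter in this contrast was not tested. Runs were counted at the ends only, so these shares do not set the ends apart from the remainder of a list. The share of peaks with a neighbour of the same list within 10 kb was 61.8% at the ends and 68.1% elsewhere at 2.5 hpf, and 30.3% and 31.3% for 10 hpf Rad21. It was higher at the ends for 4.5 hpf Rad21, at 21.9% (18.2% to 25.9%) against 16.6%, and for CTCF, at 24.5% (21.4% to 27.7%) against 19.2%. Per Mb, the ends of these lists were also 1.82 and 1.43 times as dense as elsewhere. The part of this density in the neighbour shares was not tested.

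The runs differed in enrichment and background. The fold enrichment is the authors' value for a peak over its modelled local background, and the background was recovered from it as a multiple of the genome average. The 35-peak run on chromosome 20 had a median fold of 3.19 (range 2.51 to 4.35) over a background of 29.7 times the average. The 16-peak run at the tip had a median fold of 4.11 (2.66 to 6.53) over 14.5 times. The 12-peak run on chromosome 18 had 3.41 (2.26 to 4.29) over 42.7 times, and the 9-peak run on chromosome 4 had 2.36 (1.92 to 3.26) over 34.7 times.

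The 3 densest ends were set apart for their own high counts, and the peaks elsewhere were not trimmed in this way. Of all end peaks, the 97 with a neighbour within 10 kb had a median background of 29.0 times the average, and the 60 without one 1.86 times. The part of this choice in the values of the other 47 ends was not tested. The 81 peaks of these 47 ends had a median fold of 5.13 (quartiles 3.95 and 6.46, range 1.87 to 16.5) over a background of 2.49 times the average. Of the 81, 25 had a neighbour within 10 kb. All 10 end peaks with a fold of at least 10 were among these 81, and none of the 97 end peaks with a neighbour had such a fold. Elsewhere 28 of 1854 peaks did. All 157 end peaks together had a median fold of 4.01 over a background of 16.1 times the average, against 3.84 over 12.2 times for the 1854 peaks elsewhere. The order of the backgrounds turned without chromosome 20, to 5.34 at the ends against 12.8 elsewhere, and without chromosome 4, to 14.7 against 18.5. Among peaks whose background was below 2 times the average, 37 of them at the ends, the ratio of the ends to length was 2.10 (1.49 to 2.85). Among peaks with a fold of at least 4 it was 2.36. The part of the background in the 2.5 hpf excess was not tested.

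Leaving the 3 densest ends out, 32 peaks in the first 100 kb of the other 47 ends gave 4.59 times the mean of the 2.5 hpf list, and the whole megabase 1.16 times. The 3 ends were left out for their own high counts, which lowers both values. A 2.5 hpf peak lay within 100 kb of 26 of the 50 ends, against 33 for 4.5 hpf Rad21, 43 for 10 hpf Rad21 and 46 for CTCF.

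**Figure D3:**
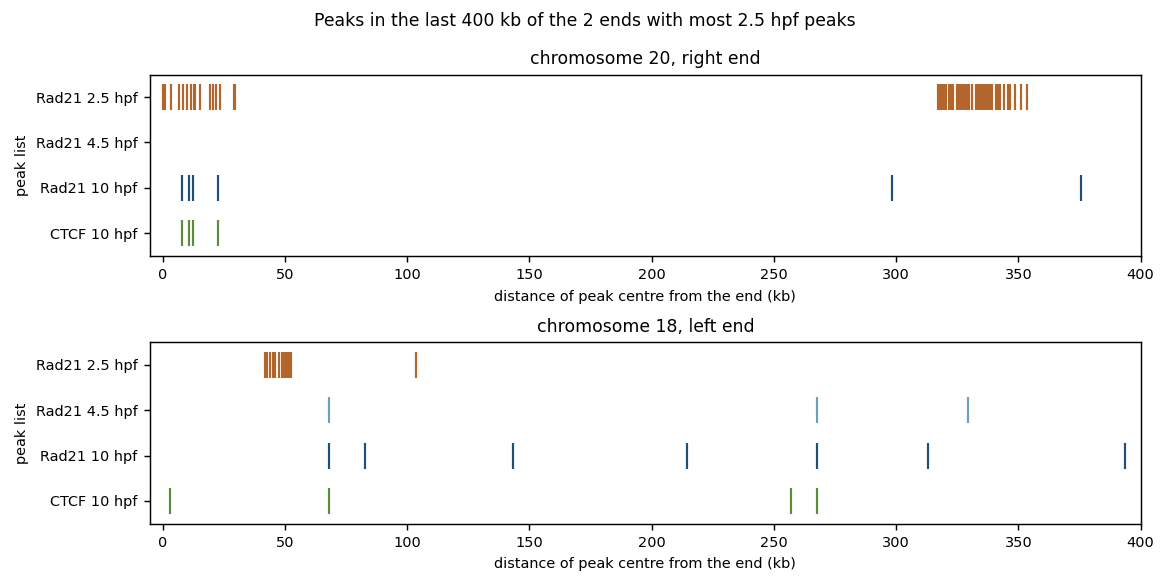
Peaks of the 4 lists (y axis, each tick 1 peak centre) by distance from the end in kb (x axis) in the 400 kb next to the right end of chromosome 20 and the left end of chromosome 18. The run of 35 2.5 hpf peaks on chromosome 20 and the run of 12 on chromosome 18 hold no peak of a later list, and the run of 16 at the tip of chromosome 20 spans 4 Rad21 and 4 CTCF peaks of 10 hpf.

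The 5 highest 2.5 hpf end peaks by q-value stood over 59.8 to 86.4 times the average background. First came the peak at the right tip of chromosome 22, from 42255872 to 42256289, at place 22 of the list, with a fold of 4.86 over 77.3 times the average. Then came chromosome 15, 36909 to 37343, at place 31 and chromosome 2, 135088 to 135657, at place 32, over 86.4 and 83.6 times the average. The peaks at chromosome 20, 55466227 to 55468083, at place 39 and chromosome 17, 53842433 to 53842817, at place 41 followed. No later list held any of these 5. Over the whole 2.5 hpf list, only 0.0995% overlapped 4.5 hpf Rad21, 0.348% 10 hpf Rad21 and 0.149% CTCF. None of the first 20 peaks of the list was an end peak (0% to 16.8%), and 6 of the first 50 were, or 12% (4.53% to 24.3%). The share over the whole list, 7.81%, lies inside both intervals.

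The next comparison was between lists, and it asked whether end peaks were shared more often than peaks elsewhere. Rad21 sites of the ends were shared between 4.5 and 10 hpf, and coincided with CTCF, more often than sites elsewhere. No end site was shared between 2.5 and 4.5 hpf. The lists compared with were themselves denser at the ends. Per Mb this was 1.82 times the density elsewhere for 4.5 hpf Rad21, 1.24 for 10 hpf Rad21 and 1.43 for CTCF. The part of this density in the sharing was not tested. The 4.5 hpf Rad21 list was compared with CTCF first. Their stages had separate inputs, and so did those of 4.5 and 10 hpf Rad21. At the ends, 85 of 466 Rad21 peaks of 4.5 hpf overlapped a CTCF peak, or 18.2% (14.8% to 22.1%), against 11.5% (10.7% to 12.3%) elsewhere and 11.9% of the whole list. Seen from CTCF, 85 of 732 end peaks overlapped a 4.5 hpf Rad21 peak, or 11.6%, against 5.75% elsewhere and 6.06% of the whole list. The interval at the ends lay above the value elsewhere in both directions.

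Between stages, 231 of the 466 end peaks of 4.5 hpf Rad21 overlapped a 10 hpf Rad21 peak, or 49.6% (44.9% to 54.2%), against 40.7% elsewhere and 41.2% of the whole list. From the 10 hpf side this was 231 of 821, or 28.1% (25.1% to 31.3%), against 15.7% elsewhere and 16.3% of the whole list. Sharing was higher in the last 100 kb than further in. There, 63.2% (50.7% to 74.6%) of 68 Rad21 peaks of 4.5 hpf overlapped one of 10 hpf and 30.9% (20.2% to 43.3%) overlapped CTCF. Between 100 kb and 1 Mb the shares were 47.2% (42.2% to 52.3%) and 16.1% (12.6% to 20.1%), so the intervals for 10 hpf Rad21 overlap. The 10 hpf Rad21 and CTCF lists were also densest in the last 100 kb, at 1.79 and 2.10 times their means. The part of that density was not tested.

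Rad21 and CTCF at 10 hpf were called against the same input, and their overlap is a description only. At the ends, 220 of 821 Rad21 peaks overlapped a CTCF peak, or 26.8%, against 18.4% elsewhere and 18.8% of the whole list. Likewise 220 CTCF peaks overlapped Rad21, 30.1% of the 732 CTCF peaks at the ends, against 23.8% elsewhere and 24.1% of the whole list.

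End peaks of some lists also stood higher in their list, and peaks high in a list were shared more often: in the first 50% of the 4.5 hpf list, 68.8% of the end peaks overlapped 10 hpf Rad21. With each list cut into 5 parts of equal size by place, end peaks made up 9.24% of the first part of the 4.5 hpf list and 4.62% of the last, and 7.89% of the first part of the CTCF list and 5.04% of the last. For 10 hpf Rad21 the shares in the 5 parts lay between 4.15% and 4.73%. With the 5 parts weighted equally, 4.5 hpf Rad21 overlapped 10 hpf Rad21 in 44.5% at the ends against 41.0% elsewhere. It was higher at the ends in 4 of 5 parts, and in the first part the order turned, to 82.6% against 84.6%. Weighted in the same way, the overlap of 4.5 hpf Rad21 with CTCF was 17.2% against 11.6%. That of 10 hpf Rad21 with 4.5 hpf Rad21 was 27.7% against 15.8%, and both were higher at the ends in 5 of 5 parts. CTCF overlapped 10 hpf Rad21 in 26.6% against 24.1%, and in the first part of its list the order turned, to 54.1% at the ends against 66.1% elsewhere.

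**Figure D4:**
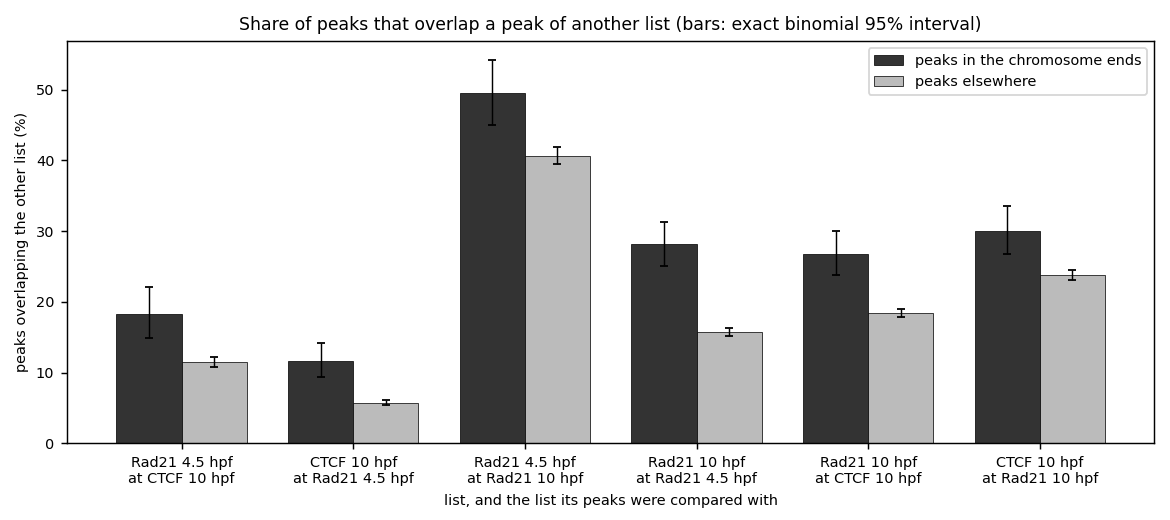
Share of the peaks of a list that overlap a peak of another list by at least 1 bp (y axis, %), for peaks in the chromosome ends (dark bars) and elsewhere (light bars), by pair of lists (x axis), with exact binomial 95% intervals. The dark bar is the higher one in all 6 pairs drawn, and the dark bars run from 11.6% for CTCF at 4.5 hpf Rad21 to 49.6% for 4.5 hpf at 10 hpf Rad21.

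Split by what they overlapped, the 10 hpf Rad21 sites differed in how far they favoured the ends. Sites that overlapped neither 4.5 hpf Rad21 nor CTCF lay in the ends in 440 of 12480 cases, or 3.53% (3.21% to 3.86%), with the share of length, 3.69%, inside the interval. Sites that overlapped CTCF alone did so in 150 of 2649 cases, or 5.66% (4.81% to 6.61%). Those that overlapped 4.5 hpf Rad21 alone reached 161 of 2204, or 7.30% (6.25% to 8.47%), and those that overlapped both reached 70 of 742, or 9.43% (7.43% to 11.8%). Against length these were ratios of 0.96, 1.54, 1.98 and 2.56. In this split, the classes above the share of length were those that another list also held. Those other lists were themselves in excess at the ends, with ratios of 1.77 for 4.5 hpf Rad21 and 1.41 for CTCF. The part of that excess in the split was not tested.

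The unshared peaks of the other lists did favour the ends. Peaks of 4.5 hpf Rad21 that overlapped neither 10 hpf list lay in the ends in 221 of 4082 cases, or 5.41% (4.74% to 6.15%), a ratio of 1.47. CTCF peaks without Rad21 at either stage did so in 497 of 10571 cases, or 4.70% (4.31% to 5.12%), a ratio of 1.28. The 14 end peaks of 4.5 hpf Rad21 that overlapped CTCF but no 10 hpf Rad21 peak were 12.1% (6.76% to 19.4%) of 116 such peaks.

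**Figure D5:**
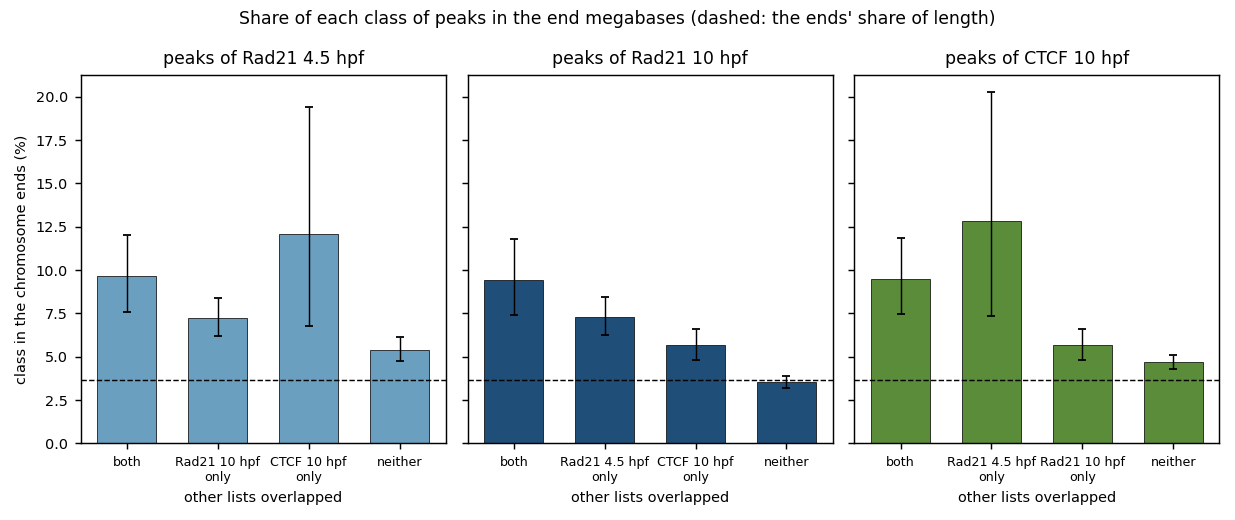
Share of each class of peaks that lies in the end megabases (y axis, %), with exact binomial 95% intervals, for classes by the other lists they overlap (x axis), 1 panel per list. The dashed line is the 3.69% of length in the ends, and among the drawn classes the interval reaches this line for 10 hpf Rad21 peaks that overlap neither other list.

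The change from 4.5 to 10 hpf was smaller at the ends than elsewhere. The number of Rad21 peaks was 1.76 times as high at 10 hpf at the ends, 466 against 821, and 2.58 times as high elsewhere, 6678 against 17254. More peaks were listed at 10 hpf in 46 of the 50 ends, as many in 1 and fewer in 3. The 3 were the right ends of chromosomes 6, 10 and 15, which went from 15 to 14, from 12 to 10 and from 16 to 14. The right end of chromosome 2 had the largest ratio, from 2 to 9 peaks. Of the 10 hpf peaks absent from the 4.5 hpf list, 590 of 15129 lay in the ends, or 3.90% (3.60% to 4.22%), against 7.84% (6.90% to 8.87%) of the 2946 found at both stages. The share of tags in peaks was 1.03% at 4.5 hpf and 3.38% at 10 hpf, per the file headers, and its part in this difference was not tested.

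Sharing varied from end to end. Of the 10 hpf Rad21 peaks of an end, a median of 29.3% (quartiles 18.8% and 35.7%) overlapped a 4.5 hpf Rad21 peak, and 42 of 50 ends lay above the 15.7% found elsewhere. The share that overlapped CTCF had a median of 23.3%, and 39 of 50 ends lay above the 18.4% found elsewhere. The right end of chromosome 16 had the highest share at 4.5 hpf, 10 of 17, and the right end of chromosome 2 the lowest, 0 of 9, while 5 of those 9 overlapped CTCF. The left end of chromosome 1 was high in both, with 12 of 22 at 4.5 hpf Rad21 and 11 of 22 at CTCF. The right ends of chromosomes 9 and 15 had none of their 11 and 14 Rad21 peaks of 10 hpf at CTCF.

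Single end sites stood among the first of their lists. A site in the left end of chromosome 8 was at place 2 of the 10 hpf Rad21 list, from 451866 to 452054, and at place 12 of the 4.5 hpf list, from 451914 to 452082, and had no CTCF peak. The first 5 end peaks of the 4.5 hpf list all overlapped 10 hpf Rad21 and none overlapped CTCF. The other 4 were at place 13 (chromosome 9 from 57958975 to 57959143), place 33 (chromosome 20 from 233548 to 233716), place 36 (chromosome 2 from 131328 to 131496) and place 39 (chromosome 1 from 89111 to 89279). In the first of 5 equal parts of the 4.5 hpf list, 82.6% of end peaks and 84.6% of peaks elsewhere overlapped 10 hpf Rad21. For CTCF these shares were 22.7% and 15.7%. The site on chromosome 20 was at place 64 of the 10 hpf list, from 233543 to 233731. Another 10 hpf site shared with 4.5 hpf lay at chromosome 17, 29001 to 29189, at place 42.

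Of the sites that 4.5 hpf Rad21, 10 hpf Rad21 and CTCF all held, 70 of the 742 in the 10 hpf list lay in the ends, in 37 of the 50. The highest was at chromosome 18, 49770556 to 49770744, at place 34 of the 10 hpf list and 101 kb from the end. Place 87 followed, on chromosome 1 from 813432 to 813620, and then place 248, on chromosome 6 from 59805775 to 59805963. Places 310 and 319 were on chromosome 21 from 845794 to 845982 and on chromosome 17 from 53429609 to 53429797. These 5 lay on 5 different chromosomes, and 1 of them was within 100 kb of an end.

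Few 2.5 hpf peaks overlapped a peak of a later list, and 3 of the 4 end peaks that did lay at the tip of chromosome 20. At the ends, 4 of 157 overlapped a 10 hpf Rad21 peak, or 2.55%, against 3 of 1854, or 0.16%, elsewhere and 0.348% of the whole list. CTCF overlapped 3 of 157, against 0 of 1854 elsewhere, which allows a share of up to 0.162% with 0 taken as up to 3 counts and 0.199% by the exact interval, and 0.149% of the whole list. No 2.5 hpf end peak overlapped a 4.5 hpf Rad21 peak, against 2 elsewhere and 0.0995% of the whole list. With an overlap of at least 50% of the shorter peak required, no 2.5 hpf end peak was shared with 10 hpf Rad21. The share with CTCF was then 0.637%. Without chromosome 20, no 2.5 hpf end peak was shared with CTCF. Seen from the later lists, 2.5 hpf Rad21 was met by 5 of 821 end peaks of 10 hpf Rad21, against 0.0498% of that whole list. It was met by 4 of 732 end peaks of CTCF, against 0.0284%, and by 0 of 466 of 4.5 hpf Rad21, against 0.028%.

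The 3 peaks shared with both 10 hpf lists lay in the 16-peak run at the right tip of chromosome 20. They were at 55789024 to 55790284, with a fold of 6.53, at 55785681 to 55787276, with a fold of 4.55, and at 55775547 to 55776870, with a fold of 5.37. They stood over backgrounds of 16.1, 33.2 and 14.7 times the genome average. Over their edges lay 4 CTCF peaks, at 55787190 to 55787354, 55790208 to 55790372, 55785546 to 55785710 and 55775432 to 55775596. Each overlapped a 2.5 hpf peak only in part and reached beyond it. These CTCF peaks were the first 4 of the whole CTCF list. The matching 10 hpf Rad21 peaks were at places 73, 180, 203 and 279, and they too reached beyond the 2.5 hpf peaks. The 4.5 hpf list had no peak in the run.

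The remaining shared 2.5 hpf peak was at the left end of chromosome 16, from 381176 to 381384, with a fold of 6.39 over 1.16 times the average. It met a 10 hpf Rad21 peak at 381020 to 381208, low in that list at place 12005, and no CTCF peak. Of the first 10 CTCF peaks, 5 were end peaks, the 4 at the tip of chromosome 20 and 1 at chromosome 1, 618497 to 618661, at place 8, which overlapped Rad21 at both 4.5 and 10 hpf. Of the first 200, 24 were end peaks, or 12% (7.84% to 17.3%). The ends were thus more frequent among the first CTCF peaks than over the whole list, at 5.20%. For 10 hpf Rad21, 17 of the first 200 were end peaks, or 8.5% (5.03% to 13.3%), against 4.54% of the whole list. Of its first 100, 7 were, or 7% (2.86% to 13.9%), with 4.54% inside the interval. In the first of 5 equal parts of that list the share was 4.70% (4.04% to 5.44%), close to that of the whole list. For 4.5 hpf Rad21, 20 of the first 200 were end peaks, or 10% (6.22% to 15.02%), with the 6.52% of the whole list inside the interval. At 2.5 hpf, 10 of the first 200 were, or 5%, with 7.81% inside the interval.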

How the data were processed

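Whole-embryo ChIP-seq with antibodies against Rad21 (2.5, 4.5 and 10 hpf) and CTCF (10 hpf) was deposited as 4 peak lists. Per the submitters' processing notes, reads were aligned to Zv9 with Bowtie2 2.2.1, and HOMER was used. The 2.5 hpf list came from MACS2 2.1.0.20151222, which pooled both Rad21 libraries and both inputs, kept 1 tag per position and used a q-value limit of 0.05, per the file headers. The other 3 lists were called with HOMER from 1 tag directory each, at a false discovery rate of 0.001, per the file headers, which also required 4-fold enrichment against input and against the 10000 bp around a peak. The sources used here do not say whether those directories held both libraries. Both 10 hpf lists used the same input directory.

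At 2.5 hpf the authors deposited the pileup (a signal, the tag coverage of the summit), a fold enrichment (ratio) and −log10 of p and q. The deposited score of the HOMER peaks is constant and was not used. Peaks were ranked by q at 2.5 hpf and by their order in the file for the others. The sources used here do not say how the authors sorted the files.

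Coordinates are 1-based on Zv9. The chromosome end was the largest peak end over the lists, not a reference length, and 1 peak off the chromosomes was left out. An overlap of 1 bp made a peak shared. The modelled background was (pileup + 1) / fold − 1, divided by 5245276 tags times 209 bp over 1450000000 bp, the values of the 2.5 hpf header. Tools were Python 3.11.15, numpy 2.4.6, pandas 2.3.3, scipy 1.17.1 and matplotlib 3.10.9, and the counting of members, overlaps and neighbours was tested on simulated data. The regions named were, per list, the 3 ends with the most peaks and all ends with none, the 5 end peaks highest in the list, the peaks nearest to a left and a right tip and the 2 just inside and just outside 1 Mb. Also named were the 2.5 hpf end peaks shared with another list and the 5 highest end sites held by the other 3 lists. The runs, the highest and lowest chromosomes and the single ends described for sharing and for stage were named after their values were seen. The members and lists were chosen with earlier results of these data known. No genome sequence or gene annotation was used here.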

Additional observations from a re-analysis of the deposited data

How the results depend on the processing

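All 38 alternative ratios of the ends stayed above 1, from 1.03 to 3.53, although the lowest, for 10 hpf Rad21 with windows of 2 Mb, had an interval of 0.978 to 1.08 that includes 1. Windows of 0.5 Mb gave 3.53, 2.25, 1.47 and 1.60 at 2.5, 4.5 and 10 hpf and for CTCF, and windows of 2 Mb gave 1.34, 1.39, 1.03 and 1.24. The first 50% of the list gave 2.51 at 2.5 hpf, 1.997 at 4.5 hpf and 1.56 for CTCF, and the first 2011 peaks gave 2.43 at 4.5 hpf, 1.35 at 10 hpf and 2.13 for CTCF. Without chromosome 20 the 2.5 hpf ratio was 1.48, and without chromosomes 4, 18 and 20 it was 1.36. The 2.5 hpf ratio was below that of 4.5 hpf without chromosome 20 (1.80), at equal length and with windows of 2 Mb. The right ends' share at 2.5 hpf was 56.4% with peaks within 1 kb merged and 49.5% without chromosome 20, which turned it to the other side of 50%.

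Overlap was higher at the ends than elsewhere in 62 of 64 alternatives, and the other 2 left no shared 2.5 hpf peak at the ends. The alternatives did not cover 2.5 hpf with 4.5 hpf Rad21, nor any later list with 2.5 hpf. As reported, 2.5 and 4.5 hpf Rad21 shared no end peak, 0 of 157 against 2 of 1854 elsewhere and 0 of 466 against 2 of 6678. Overlap with 2.5 hpf was higher at the ends for 10 hpf Rad21, 0.609% against 0.0232%, and for CTCF, 0.546% against 0%. In the first 50% of the list, 4.5 hpf Rad21 overlapped 10 hpf Rad21 in 68.8% at the ends against 61.7% elsewhere and CTCF in 22.8% against 15.4%. The 10 hpf Rad21 list overlapped 4.5 hpf Rad21 in 43.8% against 27.0% and CTCF in 34.8% against 24.8%. CTCF overlapped 4.5 hpf Rad21 in 18.5% against 10.6% and 10 hpf Rad21 in 45.7% (40.8% to 50.7%) against 42.0%, which lies inside the interval. A mean over 5 equal parts of the list gave 44.5% against 41.0% for the overlap of 4.5 hpf with 10 hpf Rad21 and 26.6% against 24.1% for that of CTCF with 10 hpf Rad21. The overlap of CTCF with 10 hpf Rad21 was 33.7% against 23.8% with windows of 0.5 Mb and 25.7% (23.3% to 28.2%) against 23.9% with 2 Mb, and that with 4.5 hpf Rad21 was 8.93% against 5.77% with 2 Mb. The 2.5 hpf overlap was 0% with 10 hpf Rad21 when 50% of the shorter peak was required, and 0% with CTCF without chromosome 20.

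A neighbour within 5 kb was found for 12.4%, 18.8% and 13.5% of the end peaks of 4.5 hpf Rad21, 10 hpf Rad21 and CTCF (8.66%, 17.4% and 8.69% elsewhere), and within 20 kb for 41.0%, 51.6% and 47.7% (27.8%, 50.7% and 36.9%). Windows of 0.5 Mb gave 27.4%, 27.2% and 28.2% (16.5%, 31.3% and 19.2%), and 2.5 hpf without chromosome 20 gave 43.8% (68.4%). The median 2.5 hpf fold was 4.604 without chromosome 20 and 5.11 with merged peaks. The median background was 5.34 and 3.499 under the same settings and 12.2 with windows of 2 Mb, below the 12.8, 4.20 and 13.3 elsewhere, so that the order turned, as it did without chromosome 4. The cause of these shifts was not tested. The alternatives without chromosomes 4, 18 and 20, with 5 parts weighted equally and with the left end set at the first peak were chosen after seeing the data, and the last moved no ratio or right share past its interval.

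The alternative with chromosome lengths from a Zv9 reference was not run. No paired analysis was possible because each list gives no value per library, and leaving out a library was not possible for the same reason. Depth, peak caller and list length differ between lists and limit comparisons of counts between them.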
